A study of Mus musculus with 100 samples.

Results

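Binding of the AP-1 factor Fosl2 after activation of Toll-like receptor 4 (TLR4) was described from 4 chromatin immunoprecipitation sequencing (ChIP-seq) libraries of 100 samples in the series. They were chosen by their labels: 2 Fosl2 libraries from mouse bone marrow-derived macrophages (BMDMs) given vehicle (Veh) and 2 from BMDMs given Kdo2 lipid A (KLA), a defined TLR4 agonist, both for 6 h. The submitted table held the raw tags of all 4 libraries at 31283 Fosl2 peaks, and every one of these peaks passed the minimum of 4 tags in at least 1 library. The study as a whole asked how the corepressor NCoR, the deacetylase HDAC3 and their partners act at genes switched on through TLR4, and Fosl2 was profiled there beside the NFκB subunit p65 and the lineage factor PU.1. The paper states that Fosl2 binding followed NCoR binding under KLA more closely than cJun, cFos or ATF3 did. Fosl2 was thus not picked independently of NCoR. The Fosl2 cells were wild type on the C57Bl6 background and were differentiated from the bone marrow of mice aged 8 to 12 weeks, and the labels call the replicates biological without saying whether they came from separate mice, so the p-values measure the spread between these libraries. The 7 other factors set beside Fosl2 were measured in wild-type BMDMs with Veh or 6 h of KLA, the vehicle libraries of p300 being described as 0 h of KLA. Acetylation of histone H3 at lysine 27 (H3K27ac) was measured with Veh or 6 h of KLA in NCoR flox/flox cells without Cre, which the sample titles call WT, in PGC1b flox/flox cells without Cre, and in wild-type cells that also received the solvent DMSO. Chromatin for Fosl2 was fixed with disuccinimidyl glutarate and then formaldehyde, a protocol that also holds proteins with no DNA contact of their own, and each library was made from a whole culture, so that fewer bound cells and less binding per cell cannot be told apart.

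Fosl2 (Fra-2) is a basic leucine zipper protein of the Fos family. It has no DNA binding of its own as a single chain and pairs with a Jun protein to form AP-1. The AP-1 palindrome was matched here as TGANTCA, with any base allowed in the centre. In macrophages AP-1 sites are found with PU.1 sites in many enhancers before any stimulus. TLR4 signals through mitogen-activated kinases to AP-1 and, by release of p65 from its inhibitors, to NFκB, and both families act at the inflammatory genes.

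Fosl2 binding was rearranged at 6 h of KLA. Of the 31283 peaks, 3558 (11.4%) were higher with KLA and 1310 (4.19%) were lower, by edgeR's quasi-likelihood test at a Benjamini-Hochberg adjusted p under 0.05 and more than a 2-fold change, with each KLA library beyond both Veh libraries. These are called peaks that rose and peaks that fell. The test and the fold minimum alone gave the same 3558 and 1310 peaks, so the rule on single libraries removed none. The strongest gains lay more than 2 kb from a start site near Il6, Mir101b, Ptgs2os2 and Lpp, 1.01 kb upstream of Fpr1 and at the promoter of Mir155hg, and the strongest losses near 1700027F06Rik, Rhobtb1, Gmpr and Lyzl4 and at the promoter of Ifitm10. Of the gene lists, cytokines, NFκB subunits and inhibitors, and lipid mediator, nitric oxide and itaconate enzymes held the largest shares of peaks that rose. The lists were chosen with earlier results of these data known, so their shares are descriptions and their ranking is not a test.

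The DNA under the peaks is shown for the 5 peaks with the lowest p-values that rose, the 3 that fell and the Ptgs2 promoter, because these carry the comparison. A further 4 (4930529L06Rik, Nos2, Ptges and Lpl) were picked after their values were seen, to show AP-1 matches. Sequences were read from mm10 (RefSeq assembly GRCm38.p6), 5′ to 3′ on the plus strand, and exon bases were left out of the Mir155hg and Ptgs2 peaks. Capitals mark matches on either strand to consensus letters: TGANTCA (AP-1), TTGCNNAA (C/EBP), GAAANNGAA (IRF), GAGGAAGT (PU.1), AACCACA (RUNX), CCGCCC (GC box), TCACGTG (E-box of the MiT family), TGACGTCA (CRE) and the degenerate NFκB (κB) consensus.
Il6, chr5:29880214-29880424: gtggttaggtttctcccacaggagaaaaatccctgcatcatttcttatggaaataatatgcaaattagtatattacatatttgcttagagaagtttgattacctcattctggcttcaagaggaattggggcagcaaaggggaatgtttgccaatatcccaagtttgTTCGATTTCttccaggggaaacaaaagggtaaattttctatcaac
Mir101b, chr19:29176491-29176724: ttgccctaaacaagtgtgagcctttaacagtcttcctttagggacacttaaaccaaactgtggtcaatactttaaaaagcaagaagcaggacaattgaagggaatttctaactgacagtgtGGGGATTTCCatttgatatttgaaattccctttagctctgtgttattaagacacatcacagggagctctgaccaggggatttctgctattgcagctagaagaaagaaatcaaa
Mir3966, chr10:97442547-97442747: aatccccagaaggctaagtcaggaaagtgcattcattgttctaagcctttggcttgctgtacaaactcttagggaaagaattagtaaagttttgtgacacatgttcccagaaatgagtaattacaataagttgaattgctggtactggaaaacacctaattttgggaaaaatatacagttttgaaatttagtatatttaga
Mir155hg, chr16:84713094-84713275: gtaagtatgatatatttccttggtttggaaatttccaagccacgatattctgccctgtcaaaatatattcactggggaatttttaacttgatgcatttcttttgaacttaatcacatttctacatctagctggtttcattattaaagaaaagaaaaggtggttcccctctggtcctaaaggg
Ptgs2os2, chr1:150197920-150198132: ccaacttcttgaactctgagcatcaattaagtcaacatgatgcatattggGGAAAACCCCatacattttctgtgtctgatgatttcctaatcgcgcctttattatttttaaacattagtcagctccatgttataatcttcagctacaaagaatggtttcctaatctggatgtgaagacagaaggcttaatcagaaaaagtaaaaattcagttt
1700027F06Rik, chr6:124375599-124375834: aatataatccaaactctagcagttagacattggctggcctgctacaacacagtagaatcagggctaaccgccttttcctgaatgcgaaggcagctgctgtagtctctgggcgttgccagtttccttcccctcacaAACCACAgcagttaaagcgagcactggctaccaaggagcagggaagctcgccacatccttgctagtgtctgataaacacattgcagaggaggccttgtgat
Rhobtb1, chr10:69254544-69254785: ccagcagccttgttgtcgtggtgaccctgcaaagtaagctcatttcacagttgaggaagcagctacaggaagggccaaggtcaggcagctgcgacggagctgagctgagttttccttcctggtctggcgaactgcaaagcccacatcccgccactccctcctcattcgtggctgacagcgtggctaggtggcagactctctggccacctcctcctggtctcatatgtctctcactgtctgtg
Gmpr, chr13:45455624-45455865: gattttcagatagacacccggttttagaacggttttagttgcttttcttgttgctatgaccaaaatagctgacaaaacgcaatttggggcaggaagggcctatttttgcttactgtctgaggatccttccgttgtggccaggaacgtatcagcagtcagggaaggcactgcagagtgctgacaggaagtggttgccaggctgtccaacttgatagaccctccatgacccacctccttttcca
Ptgs2, chr1:150099899-150100030: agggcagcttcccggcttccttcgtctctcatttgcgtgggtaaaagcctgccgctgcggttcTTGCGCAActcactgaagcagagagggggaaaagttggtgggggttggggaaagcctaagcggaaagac
4930529L06Rik, chr16:84646315-84646518: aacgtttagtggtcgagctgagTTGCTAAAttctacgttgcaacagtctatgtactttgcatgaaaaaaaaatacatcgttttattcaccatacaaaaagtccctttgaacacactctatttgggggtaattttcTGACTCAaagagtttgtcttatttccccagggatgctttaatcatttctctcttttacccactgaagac
Nos2, chr11:78889230-78889457: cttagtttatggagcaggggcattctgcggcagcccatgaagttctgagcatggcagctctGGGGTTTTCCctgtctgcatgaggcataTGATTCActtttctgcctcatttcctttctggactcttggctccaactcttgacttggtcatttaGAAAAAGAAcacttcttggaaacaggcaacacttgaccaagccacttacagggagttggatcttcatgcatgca
Ptges, chr2:30913193-30913408: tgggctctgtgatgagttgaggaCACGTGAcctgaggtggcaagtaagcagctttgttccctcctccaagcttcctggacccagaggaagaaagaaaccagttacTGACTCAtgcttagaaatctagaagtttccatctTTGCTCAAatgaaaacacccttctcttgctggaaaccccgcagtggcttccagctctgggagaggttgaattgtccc
Lpl, chr8:68951869-68952128: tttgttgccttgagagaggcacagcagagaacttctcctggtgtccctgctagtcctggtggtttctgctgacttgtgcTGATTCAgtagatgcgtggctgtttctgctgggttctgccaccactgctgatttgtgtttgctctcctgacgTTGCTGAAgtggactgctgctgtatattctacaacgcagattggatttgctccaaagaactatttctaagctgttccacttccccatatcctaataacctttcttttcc
None of the 9 peaks picked by p-value or locus held the AP-1 palindrome in the bases shown. The Mir101b and Ptgs2os2 peaks each held 1 κB match, the Il6 peak 1 IRF match and the Ptgs2 promoter 1 C/EBP match. The Nos2 peak held AP-1, κB and IRF matches within 228 bases, and the Ptges peak an AP-1 match with an E-box. A match is a description of the letters, and its absence says only that these letters are not in the window.

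The libraries differed in depth and in enrichment. They held 7.09 and 9.54 M tags (1 M is 1000000) with Veh and 4.30 and 8.55 M with KLA, of which 22.2%, 17.6%, 16.4% and 32.3% lay in the peaks. All levels below are tags in the peak per 10 M tags of the library, on which the median over all peaks was 52.2 and 41.9 with Veh and 34.9 and 73.6 with KLA. KLA replicate 1 had the fewest tags and lay below KLA replicate 2 at 90.6% of peaks, and it held 0 tags at 3680 peaks, against 345 in KLA replicate 2. Over all peaks the log2 levels correlated at Pearson's r = 0.858 between the Veh libraries, 0.783 between the KLA libraries and 0.143 to 0.216 between a Veh and a KLA library, which is a description across 31283 peaks that share these libraries. Promoters of 7 of 10 macrophage marker genes carried an H3K27ac region in NCoR flox/flox Veh cells (summed level 542 and 601), whereas no B cell, T cell or fibroblast marker did, and 1 of 8 neutrophil markers did (2.52 and 4.58 with Veh, 10.7 and 26.2 with KLA). Csf1r, Adgre1 and Lyz2 were the macrophage markers without such a region. The part of other cells and of library quality in the Fosl2 values was not tested.

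Peaks that rose went from near background to the upper range of the data. Their median level was 8.46 and 8.39 with Veh and 79.1 and 151 with KLA, and 225 of them (6.32%) had 0 tags in both Veh libraries. Peaks that fell had median levels of 48.0 and 37.7 with Veh and 0 and 4.68 with KLA, and 264 of them (20.2%) had 0 tags in both KLA libraries. The 26415 peaks that were not called had medians of 59.2 and 47.2 with Veh and 32.6 and 67.8 with KLA, so the KLA libraries lay on opposite sides of the Veh libraries there. Over all 31283 peaks the median log2 fold change was -0.14. Without regard to the test, both KLA libraries lay above both Veh libraries at 8539 peaks (27.3%) and below them at 10277 peaks (32.9%).

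**Figure D1:**
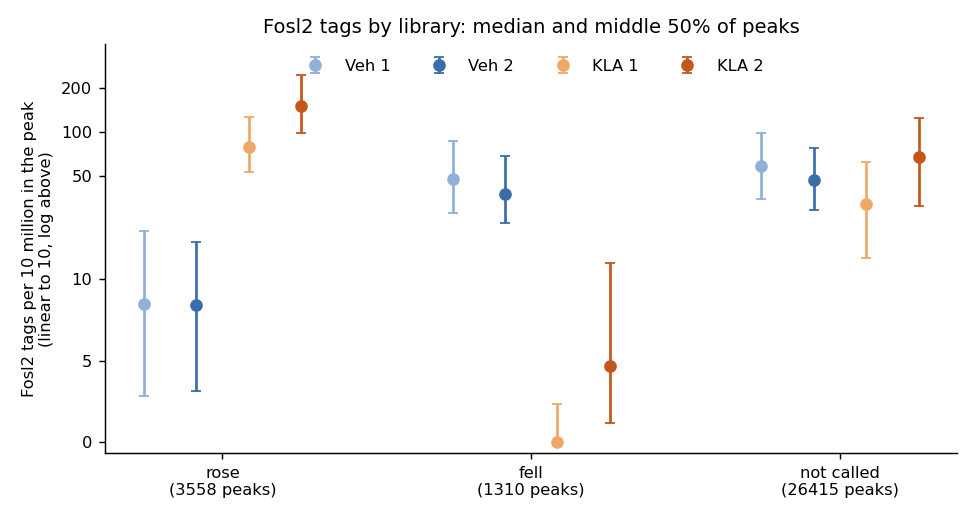
Fosl2 tags per 10 M (vertical axis, linear to 10 and logarithmic above) for peaks that rose, fell or were not called, in each of the 4 libraries; points are medians over peaks and lines the middle 50% of peaks. Both KLA libraries sit above both Veh libraries for peaks that rose (79.1 and 151 against 8.46 and 8.39) and below them for peaks that fell, while for peaks not called KLA 1 is the lowest and KLA 2 the highest.

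The call depended on the scaling and on which libraries entered. With scaling by DESeq2 size factors the counts were 5849 higher and 3931 lower, with TMM scaling 5933 and 3027, without KLA replicate 1 they were 7790 and 3086, and without KLA replicate 2 they were 4281 and 9205. Without Veh replicate 1 or Veh replicate 2, edgeR called 0 peaks (at unadjusted p under 0.05, 2418 higher and 233 lower, and 2043 higher and 443 lower). The 3558 peaks that rose and the 1310 that fell kept their direction in each of these fits. Of them 3541 and 1304 were also called with TMM scaling, and 3420 and 1264 with the Wald test of DESeq2. A fit without 1 library has 1 library left in that group, so its calls rest on the spread within the other group alone.

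The largest gain by p-value was 133 kb upstream of Il6, the gene of interleukin-6, an inflammatory cytokine. This peak held 0 and 0 tags per 10 M with Veh and 426 and 729 with KLA, at least 320-fold higher against a floor of 3 tags over the Veh group (adjusted p = 4.98e-14, edgeR). The peak 41.3 kb downstream of the microRNA gene Mir101b held 0 and 0 with Veh and 284 and 526 with KLA, at least 224-fold higher by the same floor. Another site without a Veh tag, 130 kb downstream of Itgb8, which encodes an integrin subunit that activates TGF-β, held 221 and 319 with KLA, at least 150-fold higher. At each of these 3 sites KLA replicate 1 was the lower KLA library, and the gap to Veh that every called peak shows was required by the rule for a call.

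The promoter of Mir155hg, host of miR-155, a microRNA induced by TLR signals, held 1.41 and 2.10 with Veh and 421 and 752 with KLA (adjusted p = 3.56e-12, edgeR). Beside it on chromosome 16, the peak near 4930529L06Rik held 0 and 3.15 with Veh and 349 and 566 with KLA. Both went from at most 3.15 in a Veh library to at least 349 in a KLA library. The Ptgs2os2 peak, 33.1 kb upstream of an antisense transcript of the prostaglandin synthase gene Ptgs2, held 5.64 and 0 with Veh and 500 and 670 with KLA (log2 fold change 7.77 ± 0.98 (SE, n = 2 and 2), adjusted p = 1.49e-11, edgeR). The peak 1.01 kb upstream of Fpr1, which encodes a receptor for bacterial formyl peptides, held 5.64 and 0 with Veh and 417 and 724 with KLA. The intronic peak of Lpp, a gene of a cell adhesion protein, held 0 and 9.44 with Veh and 589 and 831 with KLA. The remaining peaks among the 12 lowest p-values lay near Mir3966, Mdfic, 1700016G22Rik and 4930459C07Rik, where Veh levels were 0 to 9.44 and KLA levels 270 to 969.

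The losses with the lowest p-values started from Veh levels of 45.1 to 258. The peak 11.2 kb upstream of 1700027F06Rik held 258 and 159 with Veh and 0 and 2.34 with KLA (log2 fold change -6.97 ± 1.12 (SE, n = 2 and 2), adjusted p = 1.24e-07, edgeR). The intronic peak of Rhobtb1, which encodes an atypical small GTPase, held 71.9 and 84.9 with Veh and 0 and 0 with KLA, at least 33.6-fold lower against a floor of 3 tags over the KLA group. The peak 51.7 kb upstream of Gmpr, the gene of guanosine monophosphate reductase, held 79 and 65 with Veh and 0 and 0 with KLA, at least 30.8-fold lower. The Ifitm10 promoter held 73.4 and 60.8 with Veh and 0 and 0 with KLA, and the intronic Lyzl4 peak 155 and 89.1 with Veh and 4.66 and 1.17 with KLA. The 7 losses with the lowest p-values also include peaks near 5031425F14Rik and Mbp, and KLA levels were at most 4.66 at all 7.

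**Figure D2:**
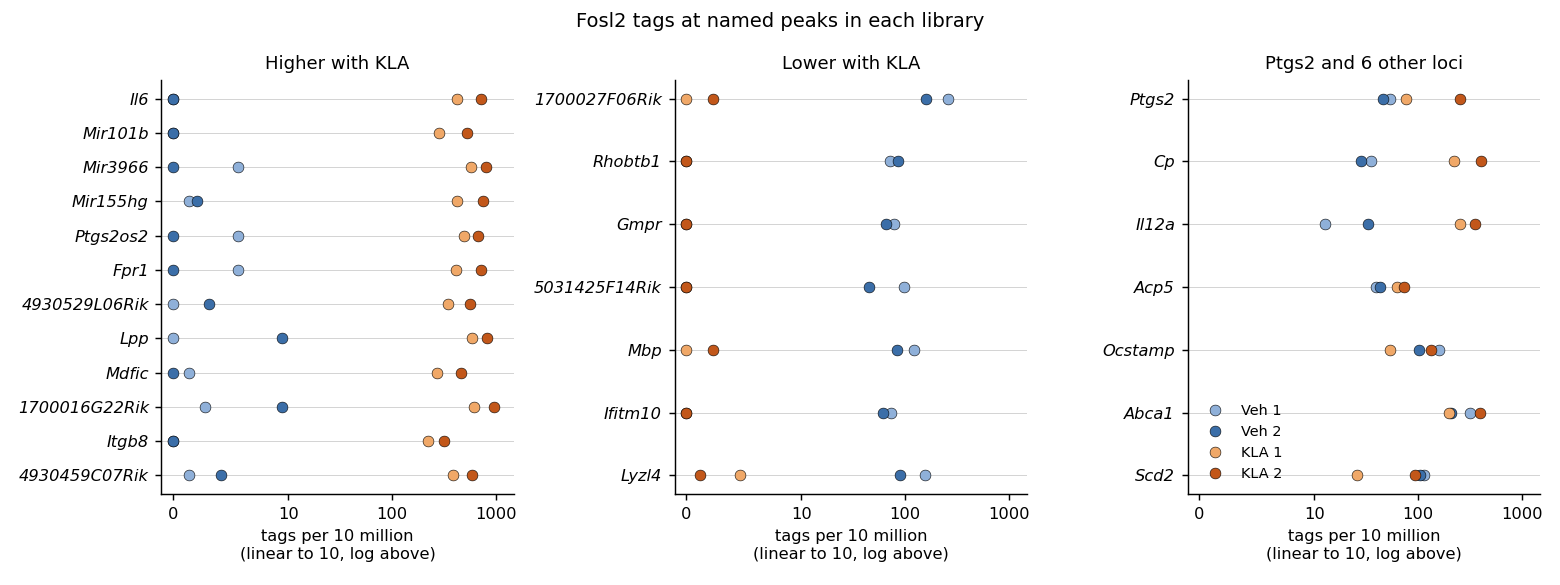
Fosl2 tags per 10 M (horizontal axes, linear to 10 and logarithmic above) in the 4 libraries at the 12 peaks that rose and the 7 that fell with the lowest p-values and at the strongest peak of 7 loci, each row named by the nearest gene. All KLA points lie at 221 or above on the left and at 4.66 or below in the middle, whereas on the right the groups overlap at Ocstamp and Abca1.

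Gene by gene, 9839 nearest genes had a Fosl2 peak, 1952 had at least 1 peak that rose, 1036 at least 1 that fell and 152 had both. The genes with the most peaks that rose were 1700016G22Rik (20 of 46), 4930529L06Rik (18 of 19) and Pla2g4a (17 of 25), with Tnfaip3 at 17 of 27 and Lpp at 17 of 31. Pla2g4a encodes the phospholipase that frees arachidonic acid, and Tnfaip3 encodes A20, a brake on NFκB. The genes with the most peaks that fell were St6gal1 (8 of 13), a sialyltransferase, and Selenop (5 of 8), a selenium carrier, with Atp6v0d2, a proton pump subunit of osteoclasts, at 5 of 10. A peak was assigned to a gene only by distance, and the median distance to a start site was 17.1 kb or more in each set given below.

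Of 26 cytokine genes 25 had a Fosl2 peak, and 64 of their 132 peaks rose (48.5%, against 11.4% of all peaks). By edgeR 0 fell, against 4.19% of all (0 at unadjusted p under 0.05 and 2 by the Wald test of DESeq2). Their median log2 fold change was 1.97 against -0.14 over all peaks. The gains covered 17 genes, among them Il6 with 10 of 11 peaks, Edn1 (endothelin 1) with 13 of 17, Inhba (an activin subunit) with 4 of 4, and Il1a and Il12a with 6 of 10 and 6 of 8. The Il1a peak 1.82 kb upstream of the start held 0 and 4.19 with Veh and 189 and 414 with KLA. The Edn1 peak 56.8 kb upstream held 9.87 and 10.5 with Veh and 475 and 697 with KLA (log2 fold change 5.82 ± 0.85). Of the chemokine peaks 29 of 97 rose (29.9%, against 11.4% of all peaks) and 0 fell by edgeR (2 at unadjusted p under 0.05 and 3 by DESeq2). At the Ccl5 promoter, a gene of a T cell and monocyte attractant, the level went from 12.7 and 5.24 to 221 and 350.

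Peaks near subunits and inhibitors of NFκB rose at 55 of 134 (41.0%, against 11.4% of all peaks) and fell at 1 (0.746%, against 4.19%). Their median log2 fold change was 1.63. Nfkb1, the gene of the p50 subunit, had 11 of its 16 peaks higher and 1 lower. Its strongest intronic gain held 5.64 and 1.05 with Veh and 372 and 468 with KLA, while another intronic site of the same gene fell from 63.5 and 40.9 to 0 and 7.01. The inhibitor genes Nfkbia and Nfkbiz had 5 of 12 and 7 of 21 peaks higher, and Rel, a further subunit gene, 5 of 11. The Nfkbia peak 24.8 kb downstream held 0 and 3.15 with Veh and 137 and 302 with KLA.

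The enzymes of lipid mediators, nitric oxide and itaconate had 39 of 97 peaks higher (40.2%, against 11.4% of all peaks) and 3 lower (3.09%, against 4.19%). All 4 peaks of Ptges, the prostaglandin E synthase gene, rose, as did all 5 of Slc7a2, an arginine transporter gene, and 6 of 7 of Acod1, which makes itaconate. The Ptges peak 10.0 kb upstream held 9.87 and 4.19 with Veh and 298 and 555 with KLA (log2 fold change 5.94 ± 0.88). Nos2, the inducible nitric oxide synthase gene, had a peak 31.4 kb upstream with 0 and 0 with Veh and 149 and 279 with KLA, at least 119-fold higher, and a peak 5.10 kb upstream that fell from 35.3 and 22 to 0 and 3.51. The losses also included 2 peaks of Ptgs1, the constitutive prostaglandin synthase gene.

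Genes of interferon regulatory factors, STATs and interferon responses had 25 of 81 peaks higher (30.9%, against 11.4% of all peaks) and 1 lower (1.23%, against 4.19%). Socs3, a feedback inhibitor of cytokine receptors, had 7 of its 11 peaks higher, and Gbp5, a guanylate-binding protein gene, 4 of 5. The Oasl1 promoter went from 1.41 and 8.39 to 151 and 299. The loss was an intronic Irf2 peak, 116 and 96.5 with Veh and 11.6 and 16.4 with KLA.

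Osteoclast genes were called in both directions, with 18 of 85 peaks higher (21.2%, against 11.4% of all peaks) and 9 lower (10.6%, against 4.19%), and the members differed. Tnfrsf11a (RANK), Prdm1 and the chloride channel gene Clcn7 had 4 of 11, 7 of 27 and 5 of 6 peaks higher, whereas the 9 losses were 5 at Atp6v0d2 and 4 at Itgb3, an integrin gene. The Atp6v0d2 promoter fell from 181 and 88.1 to 0 and 29.2 (log2 fold change -3.04 ± 0.87, adjusted p = 0.00592, edgeR), and the Tnfrsf11a peak 83.5 kb downstream rose from 0 and 16.8 to 344 and 573. Among scavenger and surface receptor genes, 24 of 148 peaks were higher (16.2%, against 11.4% of all peaks) and 6 lower (4.05%, against 4.19%). Marco and Clec4e, receptors for microbial ligands, had 3 of 3 and 2 of 3 peaks higher, and the losses were 2 each at Mrc1, Cd163 and Gas6, genes of the mannose receptor, the haemoglobin scavenger and a ligand for uptake of dead cells.

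Lipid handling genes had 10 of 91 peaks higher (11%, against 11.4% of all peaks) and 3 lower (3.3%, against 4.19%), near the shares over all peaks. Acsl1, the gene of an acyl-CoA synthetase, held 8 of the 10, which were all of its peaks, with 8.46 and 4.19 going to 284 and 420 at the site 38.6 kb upstream. Lpl, the lipoprotein lipase gene, had 2 losses among 8 peaks, and the one 71.4 kb downstream fell from 162 and 123 to 6.98 and 22.2. Lists of proteases (9 of 92 higher, 3 lower), cell cycle genes (9 of 84 and 4), kinase feedback genes (22 of 215 and 5) and macrophage lineage factors (32 of 252 and 7) had 9.78% to 12.7% of peaks higher. These shares were near the 11.4% over all peaks, and 2.33% to 4.76% of their peaks were lower, against 4.19% of all. In the lineage list Maf and Zeb2 had 7 gains each of 34 and 28 peaks. The Cebpa promoter fell from 106 and 69.2 to 0 and 3.51 (log2 fold change -5.22 ± 1.14, adjusted p = 1.47e-04, edgeR).

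**Figure D3:**
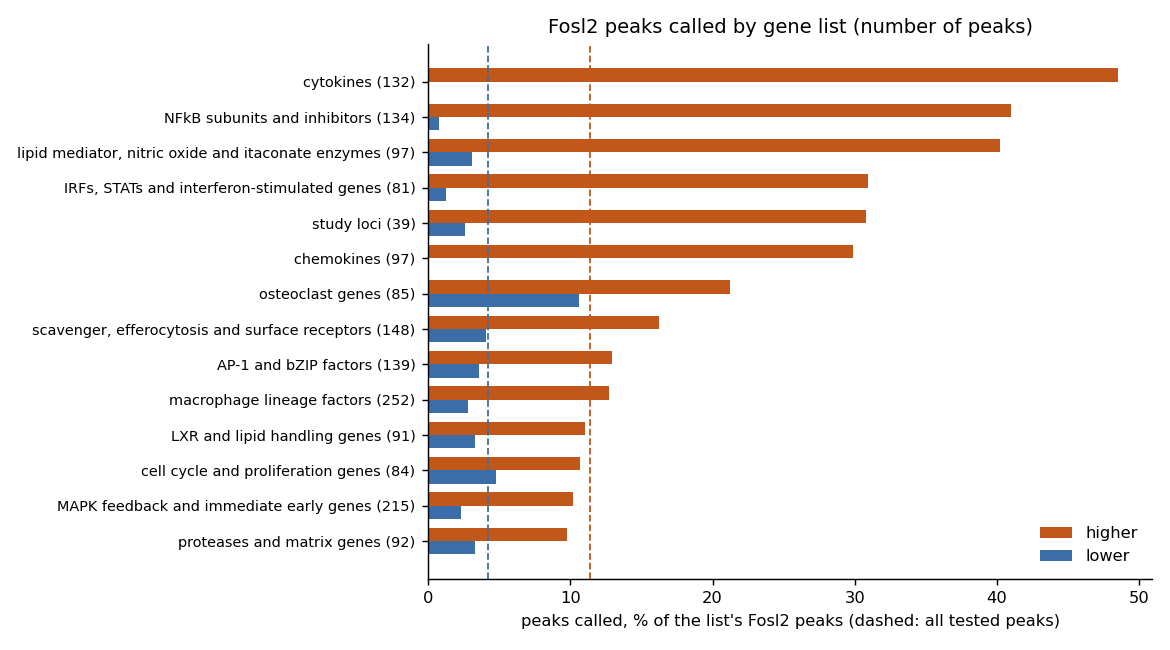
Share of each gene list's Fosl2 peaks that rose (orange) or fell (blue) with KLA, in percent, with the number of peaks in brackets; dashed lines mark 11.4% and 4.19%, the shares over all tested peaks. Cytokines (48.5%), NFκB genes (41.0%) and lipid mediator enzymes (40.2%) have the longest orange bars, and osteoclast genes the longest blue bar (10.6%). The lists were chosen with earlier results of these data known.

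The genes of AP-1 and its relatives had 18 of 139 peaks higher (12.9%) and 5 lower, near the share over all peaks. Batf, whose product pairs with Jun proteins, held 8 gains among 11 peaks, and its intronic site rose from 2.82 and 0 to 182 and 258. Fos had 3 gains and 1 loss among 18 peaks, Nfil3 2 gains among 5 and Nfe2l2 1 among 11. The losses lay at Fos, Atf3, Mafk and Bach2. Fosl1 and Jund had no Fosl2 peak assigned to them.

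At its own gene Fosl2 had 13 peaks, of which 3 rose and 0 fell by edgeR (2 at unadjusted p under 0.05 and 4 by DESeq2). The peaks 180 kb and 80.7 kb upstream, both annotated as intronic, rose from 8.46 and 4.19 to 72.2 and 101 and from 8.46 and 0 to 41.9 and 62.0. The peak 32.2 kb downstream rose from 9.87 and 7.34 to 41.9 and 106 (log2 fold change 3.11 ± 0.97, adjusted p = 0.0127, edgeR). At the promoter the levels were 39.5 and 25.2 with Veh and 0 and 10.5 with KLA, which was not called (adjusted p = 0.132, edgeR), and 0.670 kb upstream they were 130 and 106 with Veh and 20.9 and 72.5 with KLA. That peak and the one 1.47 kb upstream were called lower with TMM scaling and not with library totals. The other peaks of the gene had log2 fold changes of -1.27 to 0.37.

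At 7 loci on which the study centred, the peak with the most tags was called at Cp and Il12a only. Cp, the gene of the copper carrier ceruloplasmin, rose from 35.3 and 28.3 to 223 and 402 at its first exon (log2 fold change 3.30 ± 0.76, adjusted p = 3.73e-04, edgeR), and all 3 of its peaks rose. Il12a, a subunit gene of interleukin-12, rose from 12.7 and 32.5 to 254 and 350 at 56.9 kb upstream. The Ptgs2 promoter held 53.6 and 46.1 with Veh and 76.8 and 255 with KLA (log2 fold change 1.74 ± 0.76, adjusted p = 0.106, edgeR). Both KLA libraries lay above the Veh libraries there, KLA replicate 1 by little, and the peak was called with TMM scaling. A second Ptgs2 peak, at the end of the transcript, rose from 1.41 and 4.19 to 60.5 and 162. The strongest peaks of Acp5, Ocstamp, Abca1 and Scd2 were not called, with log2 fold changes of -0.86 to 0.73. Of the 4 Ocstamp peaks 1 was called, 7.63 kb upstream, rising from 0 and 7.34 to 32.6 and 78.3 (adjusted p = 0.00669, edgeR). Of the 17 peaks at Abca1, the cholesterol exporter gene, 1 rose and 1 fell, the latter from 309 and 233 to 9.31 and 101.

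The median distance to a transcription start site (TSS) was 23.4 kb for peaks that rose, 17.9 kb for those that fell and 17.1 kb for those not called. More than 2 kb away lay 91.5% of peaks that rose (95% exact binomial interval 90.5 to 92.4), 84.4% of those that fell (82.3 to 86.4) and 83.1% of those not called (82.7 to 83.6). These intervals cover counting error only, since peaks of one gene are not independent. Promoters held 3.51%, 9.08% and 10.4% of the 3 sets. The median GC content in 200 bp was 42.0%, 49.5% and 47.0%. In the peak calls submitted with the table, 85.1% of peaks that rose had been found with KLA alone and 99.0% of those that fell with Veh alone. These calls came from the same libraries as the test, so the match was largely built in.

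The AP-1 palindrome was present in 200 bp around the centre of 8998 of 31274 Fosl2 peaks (28.8%), against 21.7% of p65 and 13.9% of PU.1 peaks. It was in 32.0% of peaks that rose (95% exact binomial interval 30.5 to 33.5), 12.7% of those that fell and 29.1% of those not called. More than 2 kb from a start site the shares were 32.4%, 12.8% and 31.8%, so gains differed little from uncalled peaks there. The κB consensus was in 15.1% of peaks that rose, 1.15% of those that fell and 3.73% of those not called. It was in 4.92% of all Fosl2 peaks and 7.61% of all p65 peaks, whatever their change with KLA. The share in p65 peaks that rose was not computed. PU.1 letters were in 4.89%, 10.2% and 12.1% of the same sets, and the GC box in 2.73%, 9.54% and 9.60%. C/EBP letters were in 22.3% of peaks that rose, 10.4% of those that fell and 16.2% of those not called, IRF letters in 14.9%, 7.33% and 10.3%, and RUNX letters in 8.38%, 14.7% and 10.9%. The E-box of the MiT family was in 1.15%, 1.98% and 2.36% of the 3 sets, and the CRE in 0.393%, 0.687% and 0.863%. These motifs differ in base composition, as do the sets, and the part of GC content in the shares was not tested.

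The share with AP-1 was highest at log2 fold changes of 0 to 3, which include changes under 2-fold. It went from 11.5% of the peaks with log2 fold changes under -4 to 37.8% at 0 to 1 and 38.8% at 1 to 2. It was 36.6% at 2 to 3 and then went down to 26.1% above 5. The κB share went from 0.794% to 20.9% over the same range, and the PU.1 share from 8.13% through 13.3% at -1 to 0 to 2.12%. With both AP-1 and κB matches, 134 of 386 peaks rose (34.7%) and 0 fell by edgeR (3 at unadjusted p under 0.05 and 8 by DESeq2). With κB alone 404 of 1152 rose (35.1%) and with AP-1 alone 1004 of 8612 (11.7%), close to the 11.4% over all peaks. With neither, 2016 of 21124 rose (9.54%) and 1129 fell (5.34%). AP-1 matches lay a median of 32 bp from the centre in peaks that rose and 27 bp in those not called.

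**Figure D4:**
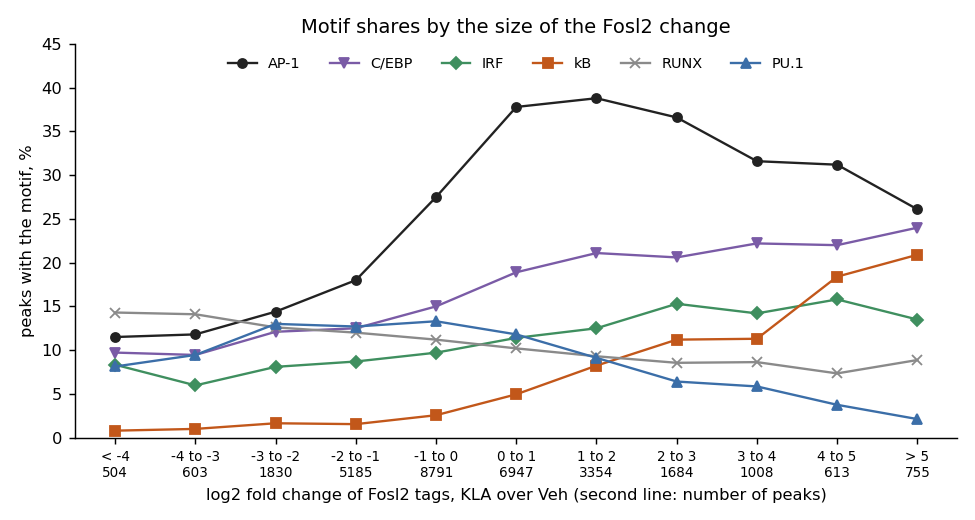
Share of Fosl2 peaks with each motif in 200 bp (vertical axis, percent) by the log2 fold change of Fosl2 tags, KLA over Veh (horizontal axis, bins with the number of peaks under each). AP-1 is highest at 1 to 2 (38.8%) and lower at both ends, κB goes from 0.794% to 20.9%, and PU.1 is highest at -1 to 0 (13.3%), with 8.13% at the lower end and 2.12% at the upper end.

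Among the 1000 peaks with the most tags in each library, the AP-1 share was 44.4% and 43.3% with Veh and 43.4% and 41.8% with KLA. The κB share of the same top peaks was 4.60% and 4.20% with Veh and 14.2% and 12.5% with KLA. Of the top 1000, 403 and 389 were peaks that rose in the KLA libraries, against 1 and 1 in the Veh libraries. The ranking used the tags that also set the calls, so these shares are not separate from those of peaks that rose. The top peaks not called on nuclear chromosomes, chosen after their values were seen, were led by the promoter of Txnip, a thioredoxin-binding protein gene, with 893 and 703 with Veh and 533 and 848 with KLA.

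Other factors were measured in separate libraries of wild-type BMDMs. The labels give Fosl2, p65 and PU.1 shared input samples, so these libraries may come from the same cultures and are not independent cells. Of the p65 peaks within 500 bp of a Fosl2 peak that rose, 3719 of 3748 (99.2%) were higher with KLA, against 57.0% of all 52629 p65 peaks tested. The median p65 level there was 7.23 with Veh and 136 with KLA. The peaks of each factor were merged from calls with Veh and with KLA. Sites with little Veh signal can thus be present through KLA alone, where a higher level is largely built in. The part of this in the shares was not tested. Near Fosl2 peaks that fell, 285 of 648 p65 peaks (44.0%) were lower, against 5.43% of all. With TMM scaling of the p65 table, 27.6% of all p65 peaks were higher and 21.3% lower, and the shares were 92.4% higher near Fosl2 gains and 82.3% lower near losses. Seen from Fosl2, 98.4% of peaks that rose had a p65 peak, and 47.5% of those that fell, against 82.9% of all Fosl2 peaks.

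PU.1, which was lower with KLA at 21.7% and higher at 4.53% of all its peaks, was higher at 964 of 1484 peaks (65%) near Fosl2 gains and lower at 741 of 954 (77.7%) near Fosl2 losses. With TMM scaling of the PU.1 table, 10.6% of all its peaks were lower and 9.13% higher, and the shares were 78.8% higher near gains and 57.4% lower near losses. A PU.1 peak was present at 39.9% of Fosl2 peaks that rose and 67.4% of those that fell, against 73.5% of all Fosl2 peaks. Of the 5977 Fosl2 peaks with p65 and without PU.1 nearby, 34.9% rose and 1.64% fell. Of the 3030 with PU.1 and without p65, 0.198% rose and 11.8% fell, and of the 2308 with neither, 2.25% rose and 14.3% fell. Where both were present the shares were 7.09% and 2.62% of 19968.

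The acetyltransferase p300 was higher at 96.0% of its peaks near Fosl2 gains (42.1% of all) and lower at 72.3% near Fosl2 losses (12.9% of all). The corepressor NCoR was higher at 86.9% near gains (23.4% of all) and lower at 80.7% near losses (16.7% of all), and its partner HDAC3 at 90.4% (27.5%) and 78.2% (11.3%). The coactivator PGC1β was higher at 90.3% near gains (16.4% of all) and lower at 51.2% near losses (6.35%), and the kinase ERK1 at 59.6% (10.3%) and 26.8% (2.53%). With TMM scaling of their tables, 23.9% of all p300 peaks and 3.93% of all ERK1 peaks were lower, and 85.4% and 34.7% of those near Fosl2 losses. At least 4 of the 7 other factors were higher at 84.7% of Fosl2 peaks that rose, against 16.8% of all Fosl2 peaks. All 7 were higher at 444 of the gains (12.5%), and none at 6. Near Fosl2 gains the median Veh level was 8.87 for p300 and 6.9 for PGC1β, so the limit given for p65 holds here too.

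Within 500 bp of the Il6 peak p65 went from a mean of 1.34 with Veh to 484 with KLA, p300 from 0.642 to 401 and HDAC3 from 0.727 to 174, while no PU.1 peak was there. At the Mir155hg promoter all 7 factors were higher. At the Ptgs2 promoter, where the Fosl2 change was not called, p65 went from 21 to 232, p300 from 35.8 to 209 and ERK1 from 7.40 to 81.3, and NCoR, HDAC3 and PGC1β were also called higher. At the 1700027F06Rik loss all 7 factors were called lower, p65 from 83.0 to 6.40 and NCoR from 217 to 7.74.

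H3K27ac, which marks chromatin in use at promoters and enhancers, was compared between Veh and KLA in the 3 experiments named above. The regions were set by open chromatin, in the DMSO and PGC1b flox/flox tables by that of vehicle cells only, so sites that open with KLA are under-represented. An NCoR flox/flox region lay within 500 bp of 16.3% of Fosl2 peaks that rose, 22.4% of those that fell and 31.4% of all, and a DMSO region of 9.33%, 37.9% and 41.7%. Of the NCoR flox/flox regions near Fosl2 gains 224 of 588 (38.1%) were higher, against 6.49% of all, and near losses 48 of 298 (16.1%) were lower, against 3.72% of all. With Fosl2 gains called without KLA replicate 1 the first share was 23.3%. With DMSO 68.0% near gains were higher (6.73% of all) and 75.1% near losses lower (28.1% of all). In the PGC1b flox/flox cells the shares were 59.3% (5.22%) and 70.4% (25.6%). With TMM scaling of these tables they were 82.5% (12.5%) and 63.0% (17.2%) with DMSO, and 77.1% (9.84%) and 51.9% (13.8%) in the PGC1b flox/flox cells. The Ptgs2os2 site went from an H3K27ac mean of 3.30 to 62.4 in NCoR flox/flox cells, and the 1700027F06Rik site from 18.3 to 3.83.

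**Figure D5:**
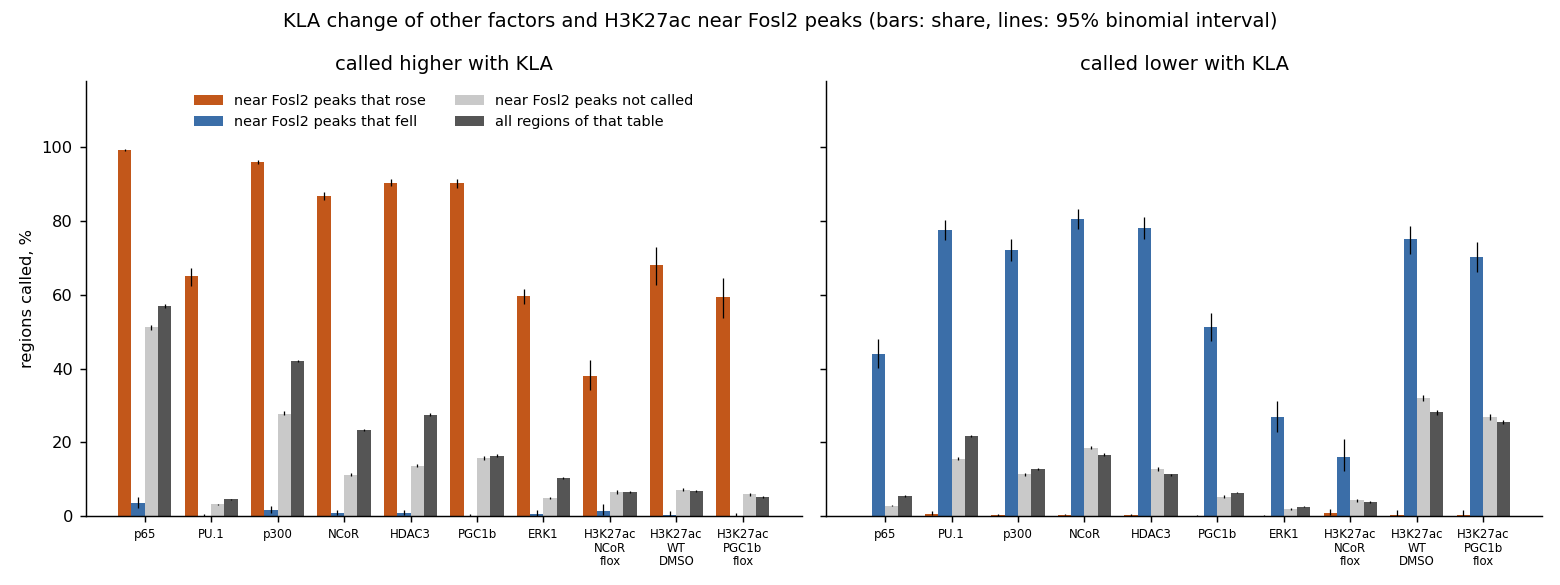
Share of regions called higher (left) or lower (right) with KLA for 7 factors and 3 H3K27ac experiments, in percent with 95% binomial intervals, for regions within 500 bp of Fosl2 peaks that rose, fell or were not called and for all regions of each table. Orange bars stand above the dark bars of all regions on the left in every table (99.2% against 57.0% for p65), and blue bars on the right (44.0% against 5.43% for p65). Peaks of the 7 factors were merged from calls in both conditions, so part of these contrasts may be built in.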

How the data were processed

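The authors deposited raw tag counts per peak and library. According to the labels and methods, reads were mapped to mm10 by Bowtie2 (version not given in the sources used here), collected in HOMER tag directories and counted unnormalized, with at most 3 tags per position. HOMER peaks that passed a reproducibility filter between replicates (irreproducible discovery rate) were merged across Veh and KLA. H3K27ac was counted in regions of open chromatin, and 2 of its tables use windows of 1000 bp.

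From these counts, tags were scaled by the library totals in the column headers (1 M is 1000000 tags) and tested two-sided by the quasi-likelihood F-test of edgeR 4.0.16 in R 4.3.3, over all 31283 Fosl2 peaks with at least 4 tags in 1 library (16 for H3K27ac). The standard error was the log2 fold change divided by the square root of F. Calls needed a Benjamini-Hochberg adjusted p under 0.05 and more than 2-fold, and each KLA library beyond both Veh libraries. Each other factor was tested in its own table. Peaks and regions were matched by centres within 500 bp. Fold bounds used a floor of 3 tags over the group. Intervals are exact binomial (Clopper-Pearson), 95%, and cover counting error only.

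The build was checked on 31283 peaks: 31274 lay inside mm10 reference chromosomes, and the listed TSS distance was met within 10 bp for 29463 of 31113 peaks whose RefSeq transcript was found (94.7%). Motif matches and sequences came from this genome (Python 3.11.15, pysam 0.24.0, samtools 1.23.1), and intervals from scipy 1.17.1. The Cp peak, which lies in an exon, is not printed.

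Members and gene lists were chosen with earlier results of these data known. Named peaks were the 12 higher and 8 lower with the lowest p-values that were also called with TMM scaling, 1 per nearest gene, the strongest peak at each of 7 loci, up to 3 higher and 2 lower per list, all Fosl2 peaks of the Fosl2 gene, a peak of the genes with the most calls, and the 6 uncalled peaks with the most tags. Values at 2 of the named peaks are not reported here. The fit was tested on simulated counts, drawn from the Veh means and library totals with a common spread. These counts did not carry the unequal enrichment of the KLA libraries, so the check does not cover it. Alternatives were TMM or DESeq2 size factors, the Wald test of DESeq2 1.42.0, other filters, distal peaks only, no fold minimum, a stricter rule for both KLA libraries, a replicate block, each library left out in turn, and other windows and distances. Replicate numbers did not pair the samples.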

Additional observations from a re-analysis of the deposited data

How the results depend on the processing

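The number of changed peaks (4868, higher and lower together) moved by more than 1.5 times with TMM scaling (8960, and 8914 changed in both KLA libraries), with DESeq2 size factors (9780 and 9720) and with the Wald test of DESeq2 (9934 and 9869). Without 1 library it ranged from 0 (without Veh replicate 1 or 2) to 13486 (without KLA replicate 2). It stayed within 1.5 times without a filter, with filterByExpr, among distal peaks alone, without a fold minimum and with both stricter rules for the KLA libraries. The samples shared only a replicate number (the differences between replicates 1 and 2 correlated at -0.007 between Veh and KLA over 31283 peaks), and with the replicate block 1361 peaks were called (1309 higher and 52 lower). Among these the distal share of peaks that rose was 93.1%, AP-1 27.8%, κB 19.8%, p65 higher nearby 99.7% and NCoR flox/flox H3K27ac higher nearby 55.6%. With TMM scaling, DESeq2 size factors and the Wald test, AP-1 was in 35.2%, 35% and 35% of peaks that rose, κB in 12.8%, 12.9% and 12.5%, p65 was higher near 98.4%, 98.4% and 98.3%, and NCoR flox/flox H3K27ac near 26.2%, 26.7% and 26.3%. DESeq2 size factors and the Wald test gave distal shares of 90.4% and 90.4% (rose) and 81.8% and 81.4% (fell). Without 1 KLA library these shares ranged from 90.4% to 90.7% and from 80.3% to 81.7%, AP-1 from 33.1% to 36.1%, κB from 11.3% to 13.9%, p65 from 97.3% to 98.8% and H3K27ac from 23.3% to 33%. Without either Veh library no peak was called, so no share could be given. In 100 bp, AP-1 was in 22.8% and κB in 10.8% of peaks that rose. With centres within 100 or 1000 bp, p65 was higher at 99.9% or 97.1%, and with TMM scaling of the other table at 92.4% (H3K27ac 31.8%). The cause of these shifts was not tested. The median log2 fold change of all peaks ranged from -0.74 without KLA replicate 2 to 0.27 without KLA replicate 1, so its sign depended on which library was left out.

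Of the 102 named nuclear peaks, 87 were called, and none of these changed direction under any alternative. All 87 were lost without either Veh library, 26 with the replicate block and 2 with the Wald test. Log2 fold changes of uncalled peaks changed sign without 1 library at Ocstamp (-1.27 to 0.03), Abca1 (-0.40 to 0.58) and the Fosl2 peaks 32.1 kb (-1.76 to 0.23) and 13.9 kb upstream (-1.09 to 0.81), the last also with the replicate block (-0.03). In KLA replicate 1 a floor of 3 tags corresponds to 6.98 tags per 10 M, so levels under this could not be told from 0 there.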

Other observations

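Repeats were described from the annotation in the table. LINE elements held 341 peaks that rose (9.58%, 95% exact binomial interval 8.64 to 10.6), 51 peaks that fell (3.89%, 2.91 to 5.09) and 1299 of those not called (4.92%, 4.66 to 5.19). LTR elements held 7.93%, 8.47% and 7.80% of the same sets, and SINE elements 2.92%, 3.59% and 3.35%. No test was made of these shares.

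The 6 peaks with the most tags that were not called all lay on the mitochondrial genome, with 1260 to 1960 tags per 10 M with Veh and 1330 to 2360 with KLA and log2 fold changes of -0.13 to 0.24. Of the 7 mitochondrial peaks 0 were called by edgeR, 0 at unadjusted p under 0.05 and 0 by DESeq2.

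The submitted calls of single conditions were set beside the test. Both came from the same libraries, so a match between them was largely built in. Of the 31274 peaks on reference chromosomes, 15852 were found with Veh alone, of which 1297 fell and 3 rose, and 5667 with KLA alone, of which 3027 rose and 0 fell by edgeR (0 at unadjusted p under 0.05 and 2 by DESeq2). The 9755 found in both had the highest share of AP-1 matches (39.2%), against 21.6% with Veh alone and 30.9% with KLA alone. Their medians were 103 and 80.7 tags per 10 M with Veh and 76.8 and 153 with KLA.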
